A study of Mus musculus with 6 samples.

Results

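The insulin and insulin-like growth factor (IGF) signalling genes described here are 10 rows of the kidney gene count table, chosen by symbol: the receptors Insr and Igf1r, the ligand Igf1, the adaptors Irs1 and Irs2, the binding proteins Igfbp1, Igfbp3, Igfbp4 and Igfbp5, and the transcription factor Foxo1. They are 10 of the 24434 gene symbols in the table, and all 10 passed the filter on low counts that left 16373 genes for testing. The series holds 6 libraries of polyadenylated RNA from whole mouse kidney, 3 from db/db animals, which the design text names as the diabetic model, and 3 from db/m animals, its control. All animals were on normal chow. The db allele is a mutation of the leptin receptor gene, and homozygous db/db mice grow obese, with high blood insulin and glucose, whereas db/m mice are heterozygous and stay lean. The sources used here state no strain, age or sex. No label ties a library to its own animal, so the spread behind the p-values is that between libraries and may be technical.

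Insulin and IGF1 bind related receptor tyrosine kinases, which phosphorylate the Irs adaptors, and these recruit PI3 kinase and through it AKT and mTOR. AKT keeps FOXO factors out of the nucleus, so that targets such as Igfbp1 and Irs2 are transcribed when insulin signalling is low. IGF binding proteins carry IGF1 and limit its access to the receptor. In the kidney, insulin acts on tubule cells and podocytes, and proximal tubule cells make glucose under the restraint of insulin. RNA levels do not show receptor or AKT activity, which was not measured.

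The libraries held 25937756 to 35931140 counts, and values are given as CPM, the count relative to the library size after scaling with TMM factors, which correct for differences in RNA composition. Those factors separated the groups, at 1.06 to 1.12 for db/m and 0.901 to 0.923 for db/db. Markers of every nephron segment looked for, of podocytes and of endothelium were present in all 6 libraries. Summed adipocyte markers reached 67.8 CPM in db/m replicate 3 and 140 CPM in db/db replicate 3 against 5.31 CPM or less in the other 4 libraries, and results were repeated without those libraries. Genotype was taken from the labels and was not checked against sequence. The transcript of leptin (Lep) is known to be abundant in the fat of db/db mice. It had 0 counts in db/db replicate 3 and was at 15.6 CPM in db/m replicate 3. That is the other way round from the labels, so each direction below is that of the libraries labelled db/db against those labelled db/m. Differences between bulk kidneys cannot tell fewer cells of a type from less RNA per cell.

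Igfbp3 was the member that changed: it rose 2.68-fold in the db/db libraries, and none of the other 9 members passed the test. A gene was called where its p from the quasi-likelihood test of edgeR, adjusted by Benjamini-Hochberg over all 16373 genes, was below 0.05, and 1 of 10 members was called, against 24.0% of all genes tested. Higher calls were 1 of 10 members against 13.1% of all genes, and lower calls were 0 of 10 against 10.8%. At an unadjusted p below 0.05, 3 of 10 members were lower, against 3191 of all 16373 genes. DESeq2 called 0 of 10 lower, against 2170 of all 16373 genes. The members' log2 fold changes, positive where db/db was higher, ran from -0.61 to 1.42 with a median of -0.02, and the median of all genes tested was -0.06. Their median absolute log2 fold change was 0.42, and that of all genes was 0.33. The groups did not overlap for 2 of the 10 members, against 44.6% of all genes tested. Igfbp3 was the member with every db/db library higher, against 22.4% of all genes, and Insr the member with every db/db library lower, against 22.2%.

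**Figure D1:**
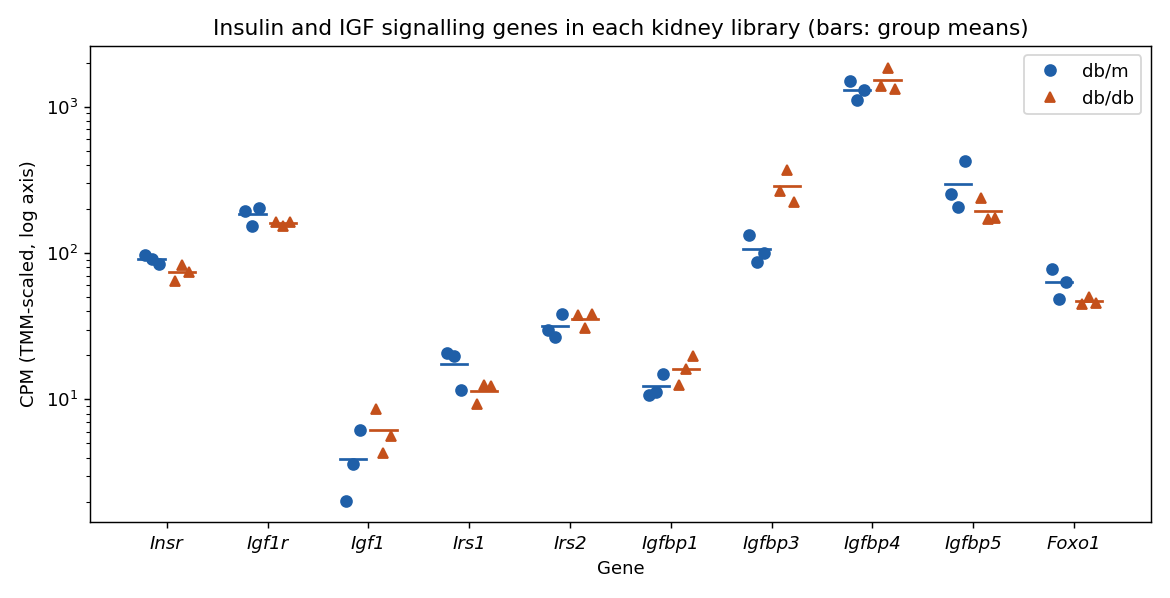
CPM (log axis) of each of the 10 genes in the 3 db/m libraries (circles) and 3 db/db libraries (triangles), with bars at the group means. Igfbp3 lies at 87.4 to 132 CPM in db/m and 222 to 367 CPM in db/db, Insr is the other gene without overlap, and the remaining 8 overlap.

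**Figure D2:**
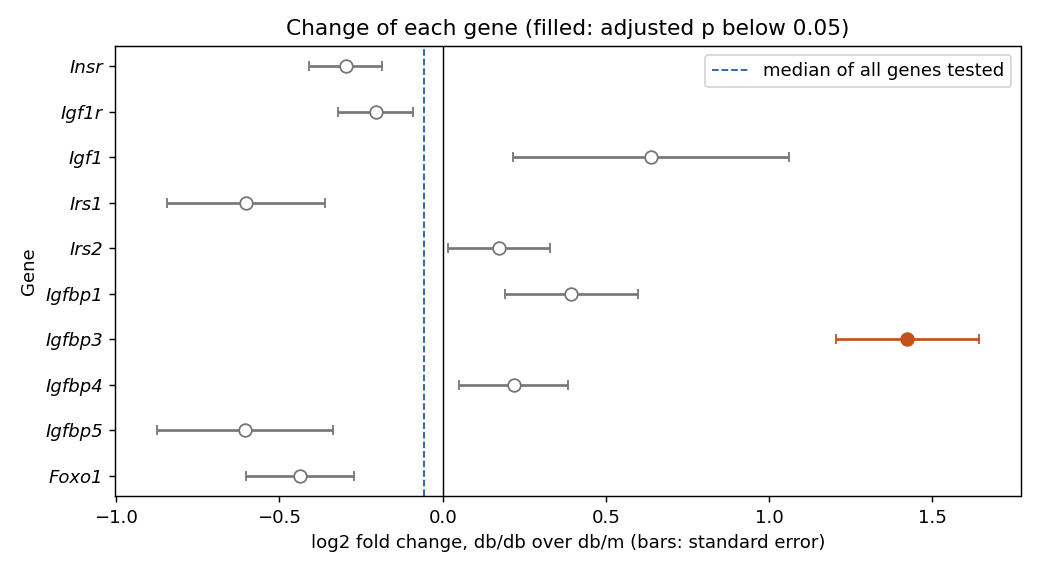
Log2 fold change of each gene, db/db over db/m, with its standard error, and the median of all genes tested as a dashed line. Igfbp3 at 1.42 is the filled point, with an adjusted p below 0.05, and the open points run from -0.61 for Igfbp5 to 0.64 for Igf1.

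Levels of different genes are compared per kilobase of exon, using the merged exon length of each gene in GENCODE M21, which may not be the annotation behind the counts. On this scale Igfbp4 was the most abundant member, at 296 ± 44.7 CPM per kb in db/m and 344 ± 65.1 CPM per kb in db/db (SD, n = 3 each here and below). Igfbp5 and Igfbp3 followed in db/m at 49.1 ± 19.1 and 34.0 ± 7.34 CPM per kb, with overlapping libraries. In db/db their order was the other way, with Igfbp3 at 91.2 ± 23.8 and Igfbp5 at 32.2 ± 6.31 CPM per kb and no overlap between them. Igf1r, Igfbp1, Foxo1 and Insr came next in db/m, from 10.9 ± 1.58 down to 6.59 ± 0.496 CPM per kb, and each overlapped its neighbour in that order. Below them stood Irs2 at 5.0 ± 0.946 CPM per kb, Irs1 at 1.90 ± 0.554 CPM per kb and Igf1 at 0.398 ± 0.209 CPM per kb, each without overlap with its neighbour. In db/db, Igfbp1 (10.6 ± 2.36 CPM per kb) overlapped Igf1r (9.49 ± 0.301 CPM per kb), Irs2, Foxo1 and Insr overlapped along their order, and Irs1 and Igf1 were again lowest. The binding proteins thus held the top 3 places in both groups, and the ligand the last.

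**Figure D3:**
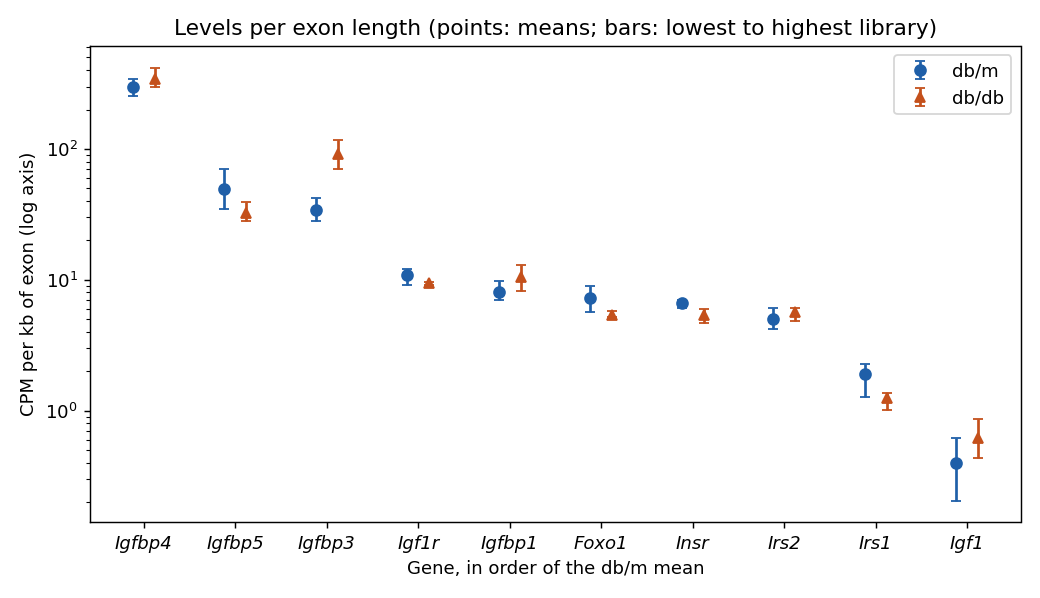
Level of each gene per kilobase of exon (log axis), as group means with bars from the lowest to the highest of 3 libraries. Igfbp4 is highest and Igf1 lowest in both groups, and the mean of Igfbp3 is below that of Igfbp5 in db/m (34.0 against 49.1 CPM per kb) and above it in db/db (91.2 against 32.2 CPM per kb).

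Igf1 encodes the growth factor that circulates mainly from liver and is also made locally in many tissues. Its level was 2.04, 3.64 and 6.15 CPM in db/m replicates 1 to 3 and 8.55, 4.32 and 5.58 CPM in db/db replicates 1 to 3. The lowest values were in db/m replicates 1 and 2 and the highest in db/db replicate 1, and the groups overlapped. The log2 fold change of 0.64 (SE 0.42, adjusted p = 0.302) rested on 56 to 213 counts per library, the smallest counts of any member. It ranged from 0.33 without db/db replicate 1 to 1.12 without db/m replicate 3, and no omission of 1 library brought it past the test. Summed leukocyte markers were also lowest in db/m replicate 1, at 31.3 CPM against 56.1 to 84.3 CPM elsewhere. That sum was made up mostly of Csf1r (34.0 ± 10.9 CPM in db/m and 57.2 ± 14.3 CPM in db/db). Ptprc (log2 fold change -0.55), Cd68 (-0.27), Adgre1 (-0.62), Cd3e (-0.66) and Cd79a (-0.39) had the opposite sign. By edgeR 0 of 6 markers were called, against 24.0% of all genes tested, and by DESeq2 only Csf1r, so the sum does not describe the list. The part of leukocytes in the level of Igf1 was not tested.

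The insulin receptor gene Insr was at 97.2, 91.0 and 83.6 CPM in db/m and 64.3, 82.6 and 74.4 CPM in db/db. Every db/db library was below every db/m library, with the nearest pair at 83.6 and 82.6 CPM. The mean was 90.6 ± 6.82 CPM in db/m and 73.8 ± 9.15 CPM in db/db, a log2 fold change of -0.30 (SE 0.11) that did not pass the test (adjusted p = 0.0933). The IGF1 receptor gene Igf1r was at 193, 154 and 204 CPM in db/m and at 162, 154 and 163 CPM in db/db. The db/db libraries lay within the lower part of the db/m range or just below it, and the log2 fold change was -0.20 (SE 0.12, adjusted p = 0.229). It was -0.31 without db/m replicate 2, whereas omission of db/m replicate 3 gave -0.11. The log2 ratio of Insr to Igf1r counts, which is free of library scaling, was -1.01 ± 0.267 in db/m and -1.12 ± 0.219 in db/db (difference -0.11, two-sided exact permutation p = 0.7, smallest possible p = 0.1).

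The adaptor genes differed in the sign of their estimates, and neither passed the test. Irs1, which links the receptors to PI3 kinase, was at 20.7, 19.8 and 11.5 CPM in db/m and at 9.31, 12.6 and 12.4 CPM in db/db. The first and second db/m libraries were above all db/db libraries, and db/m replicate 3 lay among them. The estimated log2 fold change of -0.60 had an SE of 0.24 and an adjusted p = 0.109. Without db/m replicate 3 it was -0.82 with an adjusted p = 0.0179, and without both replicates 3 it was -0.89 with an adjusted p = 0.0497. It was smaller on omission of replicate 1 or 2 of db/m, at -0.44 and -0.49 (adjusted p = 0.261 and 0.274), and of the first db/db library, at -0.47 (adjusted p = 0.265). Irs2, the adaptor whose transcription insulin represses through FOXO factors in liver, was at 30.0, 26.6 and 38.2 CPM in db/m and at 37.9, 30.6 and 38.3 CPM in db/db. Its groups overlapped, and the difference of 0.17 on the log2 scale (SE 0.16) had an adjusted p = 0.447, while the sign turned with total counts only (-0.09). The log2 ratio of Irs1 to Irs2 was -0.54, -0.42 and -1.73 in db/m and -2.02, -1.28 and -1.63 in db/db (difference -0.75, two-sided exact permutation p = 0.3).

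The promoters of both Irs genes carry the same pair of motifs, and they are shown because Irs2 is a textbook target of FOXO factors at such a site. RefSeq promoter sequences (GRCm38.p6) were found for 9 of the 10 members, and the 250 bases before the start were searched on both strands for TGTTTAC (a FOXO site), TGTTTTG (an insulin response element) and ACGTG (a hypoxia response element core, which is also part of the E-box of bHLH factors). TGTTTAC was in 0 of the 9 windows and in 3.17% of all 32851 promoter windows of that length, TGTTTTG in 3 of 9 and 5.56%, and ACGTG in 2 of 9 and 16.6%. In the stretches below, capitals mark every motif match, and the ACGTG matches lie on both strands and overlap each other. In Irs1 (chr1:82291445-82291574, minus strand) ACGTG also overlaps the first TGTTTTG, and in Irs2 (chr8:11008940-11008993, minus strand) the motifs stand 1 base apart. These matches are descriptions of sequence, and no binding was measured.
Irs1: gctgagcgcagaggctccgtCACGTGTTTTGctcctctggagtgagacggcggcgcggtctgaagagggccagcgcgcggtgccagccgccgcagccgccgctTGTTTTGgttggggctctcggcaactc
Irs2: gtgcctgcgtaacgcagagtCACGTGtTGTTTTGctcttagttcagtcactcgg

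The binding protein genes held the largest change among the members. Igfbp3, which encodes the main carrier of IGF1 in blood and is made by several kidney cell types, was at 132, 87.4 and 99.8 CPM in db/m and at 267, 367 and 222 CPM in db/db. The lowest db/db library was above the highest db/m library, so the groups did not overlap. The mean was 106 ± 23.0 CPM in db/m and 285 ± 74.4 CPM in db/db, or 1.42 on the log2 scale, with an SE of 0.22 and an adjusted p = 0.00499. The call held under all 16 other settings tried, with log2 fold changes of 1.16 to 1.62 and adjusted p up to 0.0314. The spread within db/db was wide, with db/db replicate 2 at 367 CPM, and without that library the log2 fold change was 1.21 (adjusted p = 0.0146). Summed endothelial markers were 143 to 247 CPM in db/m and 209 to 255 CPM in db/db, and fibroblast and mural cell markers were 164 to 273 and 211 to 265 CPM. Both sums overlapped between groups, and no marker of either list was at 0 in all libraries. By edgeR 0 of 6 endothelial and 1 of 7 fibroblast and mural cell markers rose, against 13.1% of all genes tested. With DESeq2 2 and 2 rose, against 2651 of all 16373 genes. Markers of the last proximal tubule segment (S3) rose in 5 of 5, against 13.1% of all genes tested. This list was chosen with earlier results of these data known, so the count is a description only. The sums of the S3 markers were 192 to 413 CPM in db/m and 2837 to 3889 CPM in db/db, with single log2 fold changes of 2.80 to 5.82. Whether these markers follow the number of S3 cells was not tested. Of 6 other proximal tubule markers, 0 rose by edgeR (2 by DESeq2) and 2 fell by both. The median log2 fold change of these 6 was -0.16. The median log2 fold change was 0.30 over the endothelial markers, which were all positive, and 0.13 over the fibroblast and mural cell markers. The part of these cell types in the level of Igfbp3 was not tested.

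Igfbp1, the binding protein that insulin represses in liver, was at 10.6, 11.2 and 14.9 CPM in db/m and at 12.6, 16.0 and 19.7 CPM in db/db. The upper db/db libraries exceeded all db/m libraries and db/db replicate 1 did not, and the log2 fold change was 0.39 (SE 0.20, adjusted p = 0.196). Summed hepatocyte markers were 455 to 931 CPM in db/m and 2104 to 2912 CPM in db/db, a sum made up mostly of Cyp2e1 (423 ± 197 against 2265 ± 449 CPM). Of the 5 genes Cyp2e1 and Ttr rose, Serpina1a fell, and Alb was at 12.1 ± 5.27 against 8.33 ± 3.31 CPM with overlapping groups, so the sum does not describe the list. Their part in the level of Igfbp1, which was 0.23 on the log2 scale without db/db replicate 3, was not tested. Igfbp1 and Igfbp3 are neighbours in the RefSeq annotation, with 0 protein-coding genes between them, and are transcribed towards each other. Their log2 ratio, Igfbp3 to Igfbp1, was 3.11 ± 0.463 in db/m and 4.14 ± 0.566 in db/db (difference 1.03, two-sided exact permutation p = 0.2). The smallest p this design allows is 0.1, and the difference was 0.84 to 1.35 with a library left out. The promoter stretch of Igfbp1 (chr11:7197659-7197705, plus strand) is shown because it holds the insulin response element through which FOXO factors are known to act on this gene, found here as TGTTTTG on the minus strand in capitals. The 250 bases before the start of Igfbp3 (chr11:7213924-7214173, minus strand), the member that rose, are set beside it and hold 0 matches to the 3 motifs.
Igfbp1: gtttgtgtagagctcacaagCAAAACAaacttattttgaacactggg
Igfbp3: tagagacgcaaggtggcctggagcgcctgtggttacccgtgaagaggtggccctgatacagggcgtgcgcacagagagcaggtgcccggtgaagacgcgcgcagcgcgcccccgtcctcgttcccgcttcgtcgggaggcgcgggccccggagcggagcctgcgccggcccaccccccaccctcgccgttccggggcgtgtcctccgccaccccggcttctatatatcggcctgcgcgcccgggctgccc

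Igfbp4, which encodes a binding protein that restrains IGF action and is cleaved by the protease PAPP-A, was at 1506, 1112 and 1300.4 CPM in db/m and at 1386, 1848 and 1322 CPM in db/db. Its groups overlapped, and the difference of 0.22 on the log2 scale (SE 0.17) had an adjusted p = 0.371, while the sign turned with total counts only (-0.04). The log2 ratio of Igfbp3 to Igfbp4 was -3.51, -3.67 and -3.70 in db/m and -2.37, -2.33 and -2.58 in db/db. The groups were apart, with a difference of 1.20, or 2.30-fold, and the two-sided exact permutation p = 0.1 was the smallest that 3 against 3 libraries can give. This ratio and that of Igfbp3 to Igfbp1 were chosen after the values were seen, and adjusted over the 4 ratios tested (Benjamini-Hochberg) the p-values were 0.4 for the 3 ratios of Irs1 to Irs2, Igfbp3 to Igfbp1 and Igfbp3 to Igfbp4 and 0.7 for Insr to Igf1r. Within a library Igfbp3 and Igfbp4 went up and down together in part: db/db replicate 2 had the highest value of both genes, and db/m replicate 2 the lowest of both.

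Igfbp5, which encodes a binding protein that also attaches to extracellular matrix, was at 252, 207 and 425 CPM in db/m and at 237, 170 and 174 CPM in db/db. The db/m libraries were spread by the high db/m replicate 3, and the groups overlapped. The log2 fold change was -0.61 (SE 0.27, adjusted p = 0.142) and shrank to -0.24 without db/m replicate 3. That library also had the highest sums of endothelial (247 CPM), fibroblast and mural cell (273 CPM), adipocyte (67.8 CPM) and urothelial (72.0 CPM) markers of the 3 db/m libraries. The same held for markers of S3 (413 CPM), thick ascending limb (3289 CPM), leukocytes (62.5 CPM) and skeletal muscle (1.09 CPM), but not for the remaining lists. In db/db replicate 3, the library with the most adipocyte markers, Igfbp5 was at 174 CPM. The part of these cell types in the level of Igfbp5 was not tested.

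Foxo1 encodes the transcription factor that insulin holds out of the nucleus through AKT. It was at 78.3, 48.8 and 63.2 CPM in db/m and at 44.8, 50.1 and 45.6 CPM in db/db. The db/db libraries were close together, with replicates 1 and 3 below every db/m library and replicate 2 just above db/m replicate 2, so the groups overlapped. The mean was 63.4 ± 14.7 CPM in db/m and 46.8 ± 2.84 CPM in db/db, or -0.44 on the log2 scale (SE 0.16, adjusted p = 0.0943). Omission of db/m replicate 2 gave -0.59 (adjusted p = 0.0268), and omission of db/m replicate 1 gave -0.24 (adjusted p = 0.227).

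The sign of small changes depended on the scaling of the libraries. With total counts only, the median log2 fold change of all genes moved from -0.06 to -0.32, and 5 members were called lower: Insr (-0.56, adjusted p = 0.00727), Igf1r (-0.47, adjusted p = 0.022), Irs1 (-0.86, adjusted p = 0.026), Igfbp5 (-0.87, adjusted p = 0.0492) and Foxo1 (-0.69, adjusted p = 0.0144). Relative to that median these 5 stood at about the same distance as with TMM. Igfbp3 was called higher there as well (1.16, adjusted p = 0.00674).

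**Figure D4:**
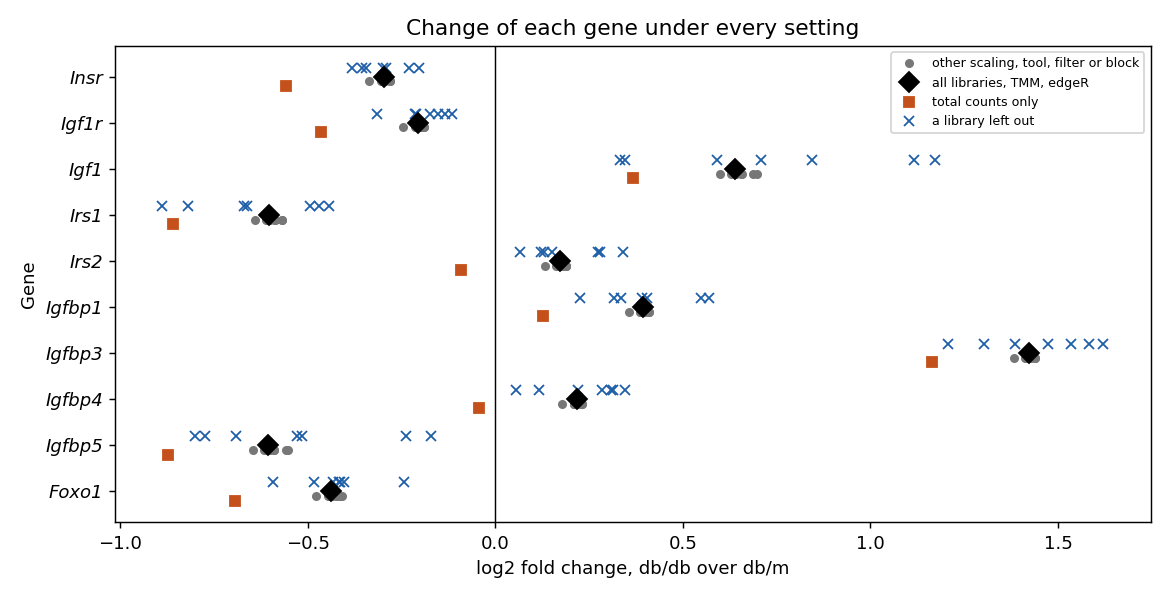
Log2 fold change of each gene, db/db over db/m, with all libraries and TMM scaling (diamonds), with total counts only (squares), with libraries left out (crosses) and under the other settings (dots). Igfbp3 stays at 1.16 or above throughout, Igf1 and Igfbp5 move most when a library is left out, and Irs2 and Igfbp4 cross 0 with total counts only.

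The genes whose profile over the 6 libraries was most like that of a member are named for the 3 members with the smallest p, as a description over 6 libraries that share the group difference. For Igfbp3 these were Atp6v0d1, Klc4 and Hbs1l (Pearson r of log2 CPM 0.999, 0.998 and 0.997 among 11071 genes). Zfp12, Mbd6 and Prdm2 were nearest to Insr (r = 0.998, 0.997 and 0.997). Fyn, Rgs5 and Id2 were nearest to Foxo1 (r = 0.990, 0.990 and 0.981).

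Beyond the members, 91 other genes of the pathway were listed in 10 groups by role, of which 90 were in the table and 87 were tested. Of these, 7 rose and 10 fell, or 19.5% called against 24.0% of all genes tested, with a median log2 fold change of -0.02. Of the 17 calls, 8 held with each library left out in turn: Mtor, Ghr, Stc1, Sgk1, Pik3r1, Pik3r3, Deptor and Ppargc1a. Without both replicates 3, the adipocyte-rich libraries, the calls on Pik3r1 and Deptor ended (adjusted p = 0.0677 and 0.0565).

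Among the other ligands and receptors, 0 of 3 tested genes passed by edgeR, against 24.0% of all genes tested. An unadjusted p below 0.05 was seen for 1, and DESeq2 called Igf2 lower. Igf2, the fetal growth factor, was at 5.48 ± 5.19 CPM in db/m, with 11.4 CPM in db/m replicate 2, and at 1.88 ± 0.656 CPM in db/db (log2 fold change -1.55, adjusted p = 0.13, and 0.0414 by DESeq2), and without db/m replicate 2 the log2 fold change was -0.41 (adjusted p = 0.518). Insrr, the insulin receptor-related gene whose product senses alkaline pH, was at 25.8 ± 3.20 against 33.9 ± 7.29 CPM in db/db, and Igf2r, which clears IGF2, at 96.4 ± 11.6 against 101 ± 1.48 CPM. Of the insulin genes, Ins1 was looked for and had no entry among the gene symbols. Ins2 had 0 counts in all db/m libraries, where a count of 0 allows up to 0.0759 to 0.109 CPM (3 counts of the scaled library). It had 0, 3 and 2 counts in db/db replicates 1 to 3.

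Of 4 other carriers of IGF tested, 1 fell and 0 rose by edgeR (1 rose by DESeq2 and 1 had an unadjusted p below 0.05). The share called by edgeR was 25.0%, against 24.0% of all genes tested. Igfbp2 was at 6.0 ± 2.32 CPM in db/m and 1.76 ± 0.983 CPM in db/db (log2 fold change -1.77, SE 0.50, adjusted p = 0.0403), the opposite direction to Igfbp3. Its call ended without any single library other than db/m replicate 1 (adjusted p = 0.0565 to 0.096). Igfals, which encodes the acid-labile subunit that joins IGFBP3 and IGF1 in blood, was at 5.70 ± 0.974 against 8.36 ± 0.761 CPM (log2 fold change 0.55, adjusted p = 0.0653, and 0.0287 by DESeq2). Igfbp7 (log2 fold change 0.09) and Igfbp6 (-0.30) did not pass.

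Of 5 genes for proteases that cut binding proteins and for their inhibitors, 1 rose and 1 fell by edgeR. That was 40.0% called against 24.0% of all genes tested, and DESeq2 called 1 higher and 2 lower. Stc1, whose product stanniocalcin-1 inhibits PAPP-A, fell from 15.4 ± 6.15 CPM in db/m to 3.03 ± 0.698 CPM in db/db (log2 fold change -2.34, SE 0.35, adjusted p = 0.00423). Pappa2, a protease for IGFBP3 and IGFBP5, was at 2.34 ± 1.62 against 0.533 ± 0.333 CPM. Its log2 fold change was -2.12 (adjusted p = 0.0607, 0.0115 by DESeq2, and 0.0343 without db/m replicate 1), and Stc2 had -0.67 (adjusted p = 0.11). Htra1, a serine protease gene, rose from 71.5 ± 21.9 to 116 ± 4.31 CPM (log2 fold change 0.70, SE 0.20, adjusted p = 0.0394), a call that ended without any single library other than db/m replicate 3 (adjusted p = 0.0884 to 0.104) and with total counts only (0.44, adjusted p = 0.139).

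Of 6 genes of growth hormone input, which drives Igf1 transcription in liver, 1 rose and 0 fell, also by DESeq2, with 0 lower at an unadjusted p below 0.05. That was 16.7% called, against 24.0% of all genes tested. The growth hormone receptor gene Ghr was at 231, 323 and 271 CPM in db/m and at 726, 571 and 671 CPM in db/db, or 1.26 on the log2 scale (SE 0.15, adjusted p = 0.00194). Cish, a feedback inhibitor that growth hormone induces, had a log2 fold change of -0.58 (adjusted p = 0.165), where omission of db/db replicate 1 gave -0.95 (adjusted p = 0.0298) and that of db/db replicate 2 gave -0.33 (adjusted p = 0.312). Stat5a (0.26) and Stat5b (0.03), the transducers, did not pass.

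None of the 9 tested receptor adaptors other than Irs1 and Irs2 was called by edgeR or DESeq2, where edgeR called 24.0% of all genes. At an unadjusted p below 0.05, 1 was lower. That was Sh2b1, at a log2 fold change of -0.32 (adjusted p = 0.0934, and 0.0265 without db/m replicate 3), while Dok4 had 0.35, Cbl -0.25 and Shc1 0.17. Irs4 had 0 counts in all 6 libraries.

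Of 24 genes of PI3 kinase, AKT and mTOR, 3 rose and 5 fell, or 33.3% called against 24.0% of all genes tested. Mtor, the kinase of both mTOR complexes, was at 124, 141 and 146 CPM in db/m and at 340, 320 and 334 CPM in db/db. Its libraries were tight within each group and far apart between them, a 2.42-fold difference (log2 fold change 1.28, SE 0.09, adjusted p = 0.000261). The regulatory subunit genes of PI3 kinase fell, Pik3r3 from 18.0 ± 1.32 to 7.76 ± 0.822 CPM (-1.21 on the log2 scale, SE 0.13, adjusted p = 0.00139) and Pik3r1 from 46.2 ± 1.04 to 30.4 ± 3.58 CPM (-0.60, SE 0.10, adjusted p = 0.00728), whereas Pik3r2 had 0.21 and did not pass. Sgk1, a kinase that insulin and aldosterone activate in the distal nephron, fell from 461 ± 139 to 189 ± 22.2 CPM (-1.29, SE 0.21, adjusted p = 0.00654). The summed markers of the distal convoluted tubule were also lower, at 729 to 887 CPM in db/db against 1170 to 1601 CPM in db/m. Of its genes 4 of 4 were called lower, against 10.8% of all genes tested, in a list chosen with earlier results of these data known. The collecting duct sum was 553 to 719 CPM in db/db and 881 to 1323 CPM in db/m, but its genes did not move as a group: Aqp2, which makes up most of the sum, and Avpr2 fell, Slc26a4 rose (0.41 on the log2 scale, adjusted p = 0.0347), and the other 3 were not called. The part of these cell types in the level of Sgk1 was not tested. The other calls were Mapkap1 (0.34) and Akt2 (0.28), which rose, and Tbc1d4 (-0.75) and Pdpk1 (-0.45), which fell. These 4, and Pik3r2, were named after their values were seen. Each of the 4 calls was lost without at least 3 of the single libraries (adjusted p = 0.0564 to 0.105), among them db/db replicate 3 and db/m replicate 2 for all 4. With total counts only, Akt2 was at 0.017 (adjusted p = 0.879) and Mapkap1 at 0.076 (adjusted p = 0.495).

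**Figure D5:**
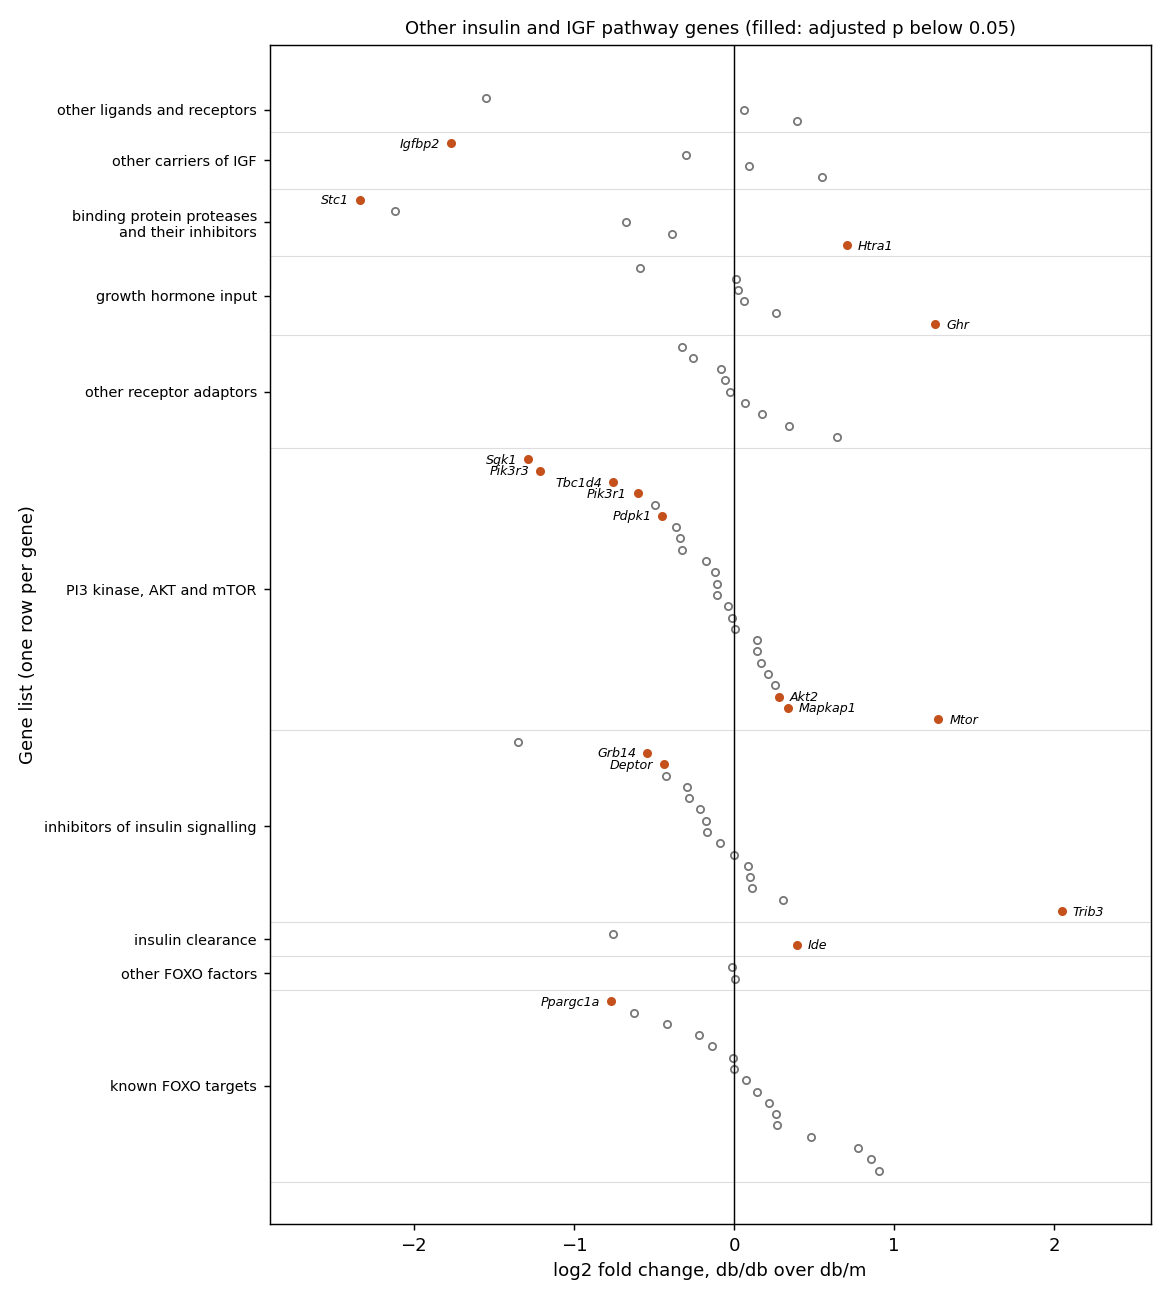
Log2 fold change, db/db over db/m, of the 87 other pathway genes tested, with 1 row per gene in 10 lists by role and called genes filled and named. The 17 filled points run from -2.34 for Stc1 to 2.05 for Trib3.

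Of 16 genes for inhibitors of insulin signalling, 1 rose and 2 fell by edgeR, or 18.8% called against 24.0% of all genes tested. DESeq2 called 1 higher and 4 lower. Deptor, an inhibitor of mTOR, fell from 64.8 ± 1.97 to 47.9 ± 2.28 CPM (log2 fold change -0.44, SE 0.08, adjusted p = 0.00769). Grb14, which blocks the insulin receptor kinase, fell from 20.9 ± 3.93 to 14.4 ± 0.288 CPM (-0.54, adjusted p = 0.037), and Trib3, a stress-induced pseudokinase that binds AKT, rose from 1.26 ± 1.0 to 5.19 ± 1.39 CPM (2.05, SE 0.53, adjusted p = 0.0308). The calls on Grb14 and Trib3 ended without any single library other than db/m replicate 3 (adjusted p = 0.0857 to 0.124 and 0.0595 to 0.0963). Inpp5k, a phosphoinositide phosphatase gene, had -0.43 (adjusted p = 0.0511, and 0.0263 by DESeq2). Omission of db/m replicate 3 gave -0.53 (adjusted p = 0.0255) and that of db/m replicate 1 gave -0.27 (adjusted p = 0.101). Of the insulin clearance genes, Ide, the insulin-degrading enzyme, rose from 49.8 ± 4.22 to 65.4 ± 4.68 CPM (0.39, adjusted p = 0.0264), a call lost without db/m replicate 1 or 2 or db/db replicate 1 or 3 (adjusted p = 0.0505 to 0.0834) and with total counts only, where it was at 0.13 (adjusted p = 0.38). Ceacam1 had -0.76 (adjusted p = 0.0508, and 0.00865 by DESeq2). Omission of db/m replicate 3 gave -0.90 (adjusted p = 0.0346) and that of db/m replicate 2 gave -0.44 (adjusted p = 0.0913).

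Neither of the other FOXO genes tested passed by edgeR, against 24.0% of all genes tested. DESeq2 also called 0, and 0 had an unadjusted p below 0.05. Foxo3 was at 101 ± 8.26 CPM in db/m and 99.8 ± 2.91 CPM in db/db, and Foxo4 at 44.6 ± 2.80 and 44.7 ± 5.28 CPM, with fold changes too small for a stable sign. Of 16 known FOXO targets beyond the members, 0 rose and 1 fell by edgeR, or 6.25% called against 24.0% of all genes tested. At an unadjusted p below 0.05 there were 4 higher and 2 lower, against 3177 higher and 3191 lower of all 16373 genes. DESeq2 called 4 higher and 1 lower, against 2651 higher and 2170 lower of all 16373 genes. The gene that fell was Ppargc1a, a coactivator of mitochondrial and gluconeogenic genes, from 52.3 ± 9.01 to 30.7 ± 2.12 CPM (-0.77 on the log2 scale, SE 0.13, adjusted p = 0.00766). Gadd45a had 0.91 (adjusted p = 0.0552, 0.00464 by DESeq2, 0.0269 without db/db replicate 2 and 0.0344 without db/m replicate 3). Sod2 had 0.27 (adjusted p = 0.0641, 0.0177 by DESeq2, 0.0267 without db/m replicate 1 and 0.936 with total counts only). Cdkn1b had -0.42 (adjusted p = 0.076, and 0.0189 without db/db replicate 3). The gluconeogenic targets Pck1 (log2 fold change -0.01, adjusted p = 0.979) and G6pc (-0.14, adjusted p = 0.791), named after their values were seen, overlapped between groups.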

How the data were processed

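The authors deposited raw counts, whole numbers per gene symbol and library. The submitters' processing notes name fastp, FastQC, HISAT2, SAMtools, StringTie and DESeq2 and give neither versions nor the part each played; for build, annotation and counting options the entry is: not given in the sources used here. Per the labels' protocols, libraries were strand-specific and made from oligo(dT)-enriched RNA. Table columns were matched to libraries by name.

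Low counts were filtered (filterByExpr), libraries were TMM-scaled, and groups were compared by edgeR 4.0.16 quasi-likelihood test (R 4.3.3), without covariates, with p adjusted by Benjamini-Hochberg. The SE is the absolute log2 fold change over the square root of F. Likeness was taken on log2 CPM (prior count 2) for genes averaging at least 2. Floors are 3 counts and cover counting error only. The scripts were tested on simulated data. Other settings were the Wald test of DESeq2 1.42.0, limma-voom (limma 3.58.1), scaling by DESeq2 size factors, by upper quartile or by total counts, no filter or a stricter filter (1 CPM in 3 libraries and 10 counts), omission of mitochondrial genes, a replicate block, and omitted libraries. All members were named, with up to 4 genes of each pathway list by smallest p. Members and lists were chosen with earlier results of these data known. Exon lengths came from GENCODE M21 and promoters from RefSeq GRCm38.p6, and whether the counts used that build is not known here.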

Additional observations from a re-analysis of the deposited data

How the results depend on the processing

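All 160 combinations of the 10 members with 16 other settings were run: 150 kept direction and side of the threshold, 8 passed as lower where TMM with all libraries did not, and 2 turned sign, both with total counts only (Igfbp4 at -0.043 and Irs2 at -0.090). The members called higher came to 1 in every setting. The members called lower, 0 with TMM, came to 5 with total counts only, to 0 to 1 with a library left out (Foxo1 without db/m replicate 2, Irs1 without db/m replicate 3), and to 1 without both replicates 3.

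Over all genes, 3925 calls became 5955 with total counts only (1072 higher and 4883 lower, against 2151 and 1774), 2286 with the replicate block, 2246 to 3527 with a library left out and 1712 without both replicates 3. The pathway genes called higher, 7 with TMM, came to 12 with the DESeq2 Wald test, 3 with total counts only, 3 with the replicate block and 2 to 10 with a library left out. The pathway genes called lower, 10 with TMM, came to 15 with the DESeq2 Wald test, 32 with total counts only, 6 without both replicates 3 and 6 to 11 with a library left out. The log2 ratio difference of Insr to Igf1r ran from -0.24 to 0.021 with a library left out, positive without db/m replicate 2.

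Whether replicate numbers pair the libraries cannot be settled with so few of them. Deviations of same-numbered libraries from their group means correlated at -0.15, 0.06 and 0.14, and those of differently numbered libraries at -0.30 to 0.24. Not every library correlated best with its own number. With the block, Igfbp3 was called at a log2 fold change of 1.41 (adjusted p = 0.0201). The calls on Igfbp2, Htra1, Pdpk1, Akt2, Mapkap1, Tbc1d4, Grb14 and Ide ended there.

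Signs turned for small changes of pathway genes. With total counts only, Foxo4 was at -0.26, Igf2r at -0.20, Igfbp7 at -0.17, Shc1 at -0.088 and Stat5b at -0.23. With upper quartile scaling Foxo4 was at -0.035 and Stat5b at -0.013. Foxo3 was at 0.0054 with the DESeq2 Wald test, 0.0051 with DESeq2 size factors and 0.03 without both replicates 3. Foxo4 was at -0.0010 with limma-voom, -0.00092 with the replicate block, -0.0047 with the stricter filter and -0.06 without both replicates 3. With a library left out, Foxo3 ranged from -0.074 to 0.038, Foxo4 from -0.071 to 0.097, Stat5b from -0.062 to 0.10 and Igfbp6 from -0.64 to 0.19.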

Other observations

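Leptin, the ligand of the receptor that the db allele disrupts, was not detected where other adipocyte genes were highest. In db/db replicate 3, Adipoq was at 19.2 CPM, Plin1 at 8.94 CPM, Cidec at 20.4 CPM, Retn at 7.01 CPM and Cfd at 84.7 CPM, each above its level in db/m replicate 3 (13.6, 5.86, 11.01, 2.71 and 19.0 CPM). Lep was at 15.6 CPM in db/m replicate 3 and had 0 counts in db/db replicate 3, which allows up to 0.110 CPM. It also had 0 counts in db/db replicate 2 and stood at 0.161 CPM in db/db replicate 1, and it was at 0.872 and 0.278 CPM in db/m replicates 1 and 2, so every db/m library was above every db/db library. Fat of db/db mice is known for abundant Lep transcript, so Lep stood the other way round from the labels in both replicates 3. The remaining libraries held few adipocyte transcripts, with summed markers of 5.31 CPM or less. Whether the genotype label of any library is right was not tested. Adipocyte genes were chosen here as markers of neighbouring tissue, and with 1 library per group rich in them no test was made.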
